A study of Homo sapiens with 22 samples.

Results

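A group of 38 genes of the interferon response and of MHC class I antigen presentation was followed through all 6 groups of the study. The members were chosen by name, and each was looked up by its gene symbol in the table of estimated counts. Of the 38 genes 37 were found among the 34679 genes of the table, and IFIT5 was not analysed here. Of these 37, 29 had enough counts to be tested, out of 16601 genes tested in all.

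The samples were LUHMES cells, a conditionally immortalised human mesencephalic line that is differentiated into dopaminergic neurons, and polyadenylated RNA was sequenced. There were 4 libraries each of untreated wild-type cells, untreated cells overexpressing alpha-synuclein, wild-type cells given 6-hydroxydopamine (6-OHDA, an oxidising dopamine analogue), and alpha-synuclein cells given 6-OHDA. A further 3 libraries each came from alpha-synuclein cells that received 6-OHDA with the flavonol quercetin or with rutin, a glycoside of quercetin. According to the design text, the 6-OHDA cultures stood as models of Parkinson disease and the compounds were applied for protection. Some facts that would limit the model were not given in the sources used here: the promoter that drives alpha-synuclein, the number of clones, any vector or vehicle control, and the doses and times of 6-OHDA and of the compounds.

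Interferons are secreted proteins that bind receptors at the cell surface and, through JAK kinases, activate STAT and IRF transcription factors. Type I interferon assembles a complex with STAT2 and IRF9 that binds the interferon-stimulated response element (ISRE), while interferon gamma acts through STAT dimers on the gamma-activated site (GAS). Their targets include sensors of viral RNA and DNA, antiviral effectors that block entry, translation or replication, and the proteins that load peptides on MHC class I for display to T cells. Neurons are known for low class I levels, which interferon can raise.

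The promoters of 4 members that recur in the results are shown, because they carry the letters of these elements at different places. Each run is the 150 bases just before the RefSeq gene start (GRCh38.p14), written 5′ to 3′ on the gene's strand, and capitals mark the matches to GAAANNGAA (the core of the ISRE) or TTCNNNGAA (GAS). The IRF1 stretch lies at chr5:132490774-132490923 on the minus strand and holds 1 GAS match. The ISG20 stretch lies at chr15:88638866-88639015 on the plus strand, with 1 ISRE match that begins 69 bases before the start. The ISG15 stretch lies at chr1:1013347-1013496 on the plus strand, with 3 overlapping ISRE matches, the first at 113 bases. The TAPBP stretch lies at chr6:33314079-33314228 on the minus strand, with 2 overlapping ISRE matches at 20 and 14 bases.
IRF1: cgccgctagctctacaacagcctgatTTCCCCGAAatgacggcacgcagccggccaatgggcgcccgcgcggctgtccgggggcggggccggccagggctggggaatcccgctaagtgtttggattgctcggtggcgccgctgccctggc
ISG20: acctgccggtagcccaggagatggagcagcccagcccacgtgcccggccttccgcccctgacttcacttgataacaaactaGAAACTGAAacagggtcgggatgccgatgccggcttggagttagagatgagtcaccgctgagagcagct
ISG15: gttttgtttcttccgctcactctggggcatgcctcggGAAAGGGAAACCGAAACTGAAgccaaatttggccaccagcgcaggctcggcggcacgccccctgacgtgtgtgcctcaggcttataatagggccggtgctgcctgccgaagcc
TAPBP: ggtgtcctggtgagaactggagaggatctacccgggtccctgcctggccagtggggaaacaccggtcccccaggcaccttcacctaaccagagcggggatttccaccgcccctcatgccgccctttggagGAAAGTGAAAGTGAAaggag

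A RefSeq promoter (250 bases before and 50 after the start) was at hand for 29 of the 38 members. GAAANNGAA, searched on both strands, occurred in 19 of these 29 (65.5%) and in 8.29% of all 27305 promoters in the table. TTCNNNGAA, which reads the same on both strands, occurred in 7 of 29 (24.1%) against 7.88% of all promoters, and 23 of 29 (79.3%) held at least 1 of the 2 motifs against 15.2%. The motifs can overlap by a few bases. These counts describe letters in a window and say nothing of binding in these cells.

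Before the members, the libraries were compared as a whole. Library totals ran from 1.87 to 20.67 M counts (M, mega), and 3 counts, used as a detection floor, corresponded to between 0.168 and 1.49 CPM (counts divided by the library total in M, after edgeR's TMM scaling). The shallowest libraries, at 1.87 and 2.04 M counts, were replicates 4 and 3 of the 6-OHDA wild-type group. Replicate 4 of the 6-OHDA alpha-synuclein group stood apart, with a first principal component of -1.47 where the other 3 libraries of its group lay between 38.1 and 40.8, so results on that group are also given without it. The summed CPM of 8 neuronal markers was 8491 to 9340 in untreated wild-type libraries and 3166 to 3432 after 6-OHDA, and that of 6 dopaminergic markers 1322 to 1423 and 346 to 381. The markers did not all fall. Of the 8 neuronal markers 6 were called lower and 1 higher, and of the 6 dopaminergic markers 3 lower and 1 higher. In such bulk samples fewer cells of a type and less RNA per cell cannot be told apart. The library names place all untreated libraries and the 6-OHDA wild-type libraries on lane 1 and the other 10 libraries on lane 2.

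Most members had low levels. Of the 37 in the table, 23 had a count in every library. The low-count filter kept 29 of the 37, against 16601 of all 34679 genes, so the members were not detected less often than other genes. Of the 29 tested members 20 never passed 20 CPM, and the share of all genes under that level was not computed. The 8 members that were not tested were the sensors IFIH1 and IFI16, the effectors OAS3, OASL and BST2, and HLA-C, TAP1 and TAP2 of class I presentation. Each of these 8 had at most 150 counts over all 22 libraries and at most 1.99 CPM in any. The members together took 0.0935% to 0.0955% of counts in untreated and 0.0843% to 0.089% in 6-OHDA wild-type libraries, most of it ADAR. Without ADAR they took 0.0213% to 0.026% of counts in untreated wild-type libraries and 0.0342% to 0.0392% in 6-OHDA wild-type libraries.

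ADAR, an enzyme that edits adenosine to inosine in double-stranded RNA, exceeded all other members. In untreated wild-type cells its level per kilobase of exon was 82.8 CPM per kb, against 16.5 for IFITM1, 15.4 for STAT2, 12.6 for IFITM2, 6.62 for IRF3 and 5.89 for IRF7. The range of IFITM1 over the 4 libraries, 1.90 to 33.6 CPM per kb, covered the means of the next 5 members, so its place in this order is not resolved. STAT2 (14.0 to 16.9) lay above IRF3 (4.73 to 7.75) in every library, while the ranges of IRF3 and IRF7 (3.60 to 7.53) overlapped. The class I heavy chains stood at the other end, with 0.127 CPM per kb for HLA-B, 0.0645 for HLA-E and 0.0182 for HLA-C. Of their 31-base words 25.5% (HLA-B), 11.8% (HLA-E) and 17.0% (HLA-C) occur in another gene's transcripts, so their counts are uncertain. B2M, the light chain that pairs with each heavy chain, was at 1.43 CPM per kb and TAPBP (tapasin, which bridges class I and the peptide transporter) at 5.08. Before division by length their means were 8.71 and 25.7 CPM. The lengths are unions of exons over all transcripts (6.08 kb for B2M, 5.06 kb for TAPBP), so levels per kb depend on the annotation.

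**Figure D1:**
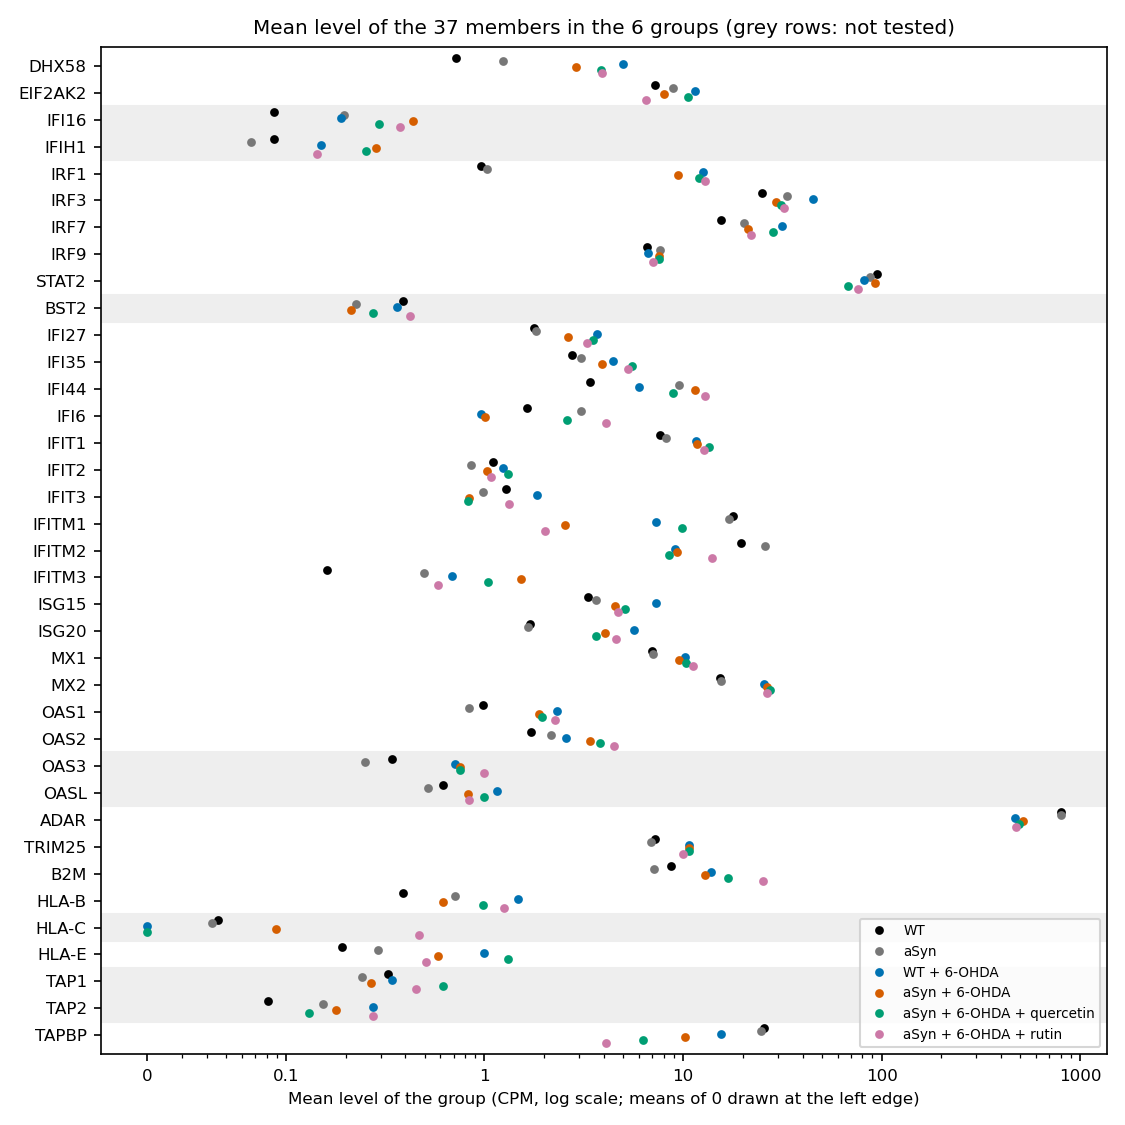
Mean level of each of the 37 members in the 6 groups, in CPM on a log axis, with group means of 0 drawn at the left edge and untested members on grey rows. ADAR lies between 441.3 and 851 CPM in single libraries, STAT2 between 64.2 and 103.4, and every other member stays at or below 54.8.

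In wild-type cells, 6-OHDA was followed by higher levels of 14 of the 29 tested members, lower levels of 3 and no call for 12, at an adjusted p under 0.05. IRF1, DHX58 and ISG20 had the largest called increases, and ADAR, TAPBP and IFITM2 fell. The background was high: 52% of all 16601 genes were called in this comparison, 25.8% higher and 26.2% lower. Of the members 58.6% were called and 48.3% were called higher. The members' median log2 fold change was 0.67 and that of all genes was 0.071. The treated and untreated libraries did not overlap for 13 of the 29 members that were higher and 3 of the 29 that were lower, against 20.7% and 24.3% of all genes. Part of this is built in by the filter on low counts: 7 tested members (DHX58, IRF1, IFIT2, IFITM3, OAS1, HLA-B and HLA-E) had no untreated library above the filter's level of 1.4 CPM and so entered only through treated libraries. The counts over the members are therefore descriptions.

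Among the transcription factors IRF1, which drives both interferon targets and class I genes, changed most. IRF1 (ENSG00000125347.14, chr5:132481609-132490798, minus strand) was at 1.31, 0.912, 0.560 and 1.08 CPM in the 4 untreated and 11.4, 13.0, 11.2 and 14.9 CPM in the 4 treated wild-type libraries. Every treated library lay far above every untreated one, and the rise came to 12.5-fold (log2 fold change 3.64, SE 0.30, adjusted p = 1.78e-09). Exons of IRF1 overlap those of C5orf56 on the opposite strand over 1716 bases (22.0%), a gene not analysed here, and those of AC116366.3 over 469 bases, whose level did not pass the test (log2 fold change 0.23, adjusted p = 0.697). In all 28.5% of the 31-base words of IRF1 occur in another gene's transcripts, so some of its reads are uncertain. IRF7, the amplifier of type I interferon transcription, was at 9.47, 17.3, 19.8 and 15.3 CPM untreated and 29.5, 42.4, 27.0 and 26.9 CPM treated (log2 fold change 1.03, SE 0.20, adjusted p = 0.000163). IRF3, which is activated by phosphorylation when viral nucleic acid is sensed, was at 29.4, 26.3, 17.9 and 26.8 CPM untreated and 39.8, 54.8, 47.4 and 39.3 CPM treated (log2 fold change 0.84, SE 0.16, adjusted p = 0.000183). For both factors every treated library lay above every untreated one. IRF3 shares 734 bases of exon (19.3%) with BCL2L12 on the opposite strand, which also rose (log2 fold change 0.61, adjusted p = 0.013). Without knowing whether counting used strand, reads from these shared bases cannot be assigned to 1 of the 2 genes. STAT2 and IRF9, which bind the ISRE in 1 complex, did not pass the test: STAT2 had a log2 fold change of -0.20 (adjusted p = 0.0607) and IRF9 of 0.0029 (adjusted p = 0.991). The lower STAT2 level passed the test in 14 of 29 alternative analyses, with adjusted p from 0.0217 to 0.197. IRF9 shares 1838 bases of exon (48.4%) with AL136295.5 on the same strand, which was not analysed here, and 50.3% of its 31-base words with other genes, so its counts are uncertain.

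Of the sensors only DHX58 and EIF2AK2 had enough counts. DHX58 (LGP2, a helicase that binds double-stranded RNA and tunes the sensor MDA5) was at 0.490, 0.365, 0.934 and 1.08 CPM untreated and 5.27, 5.14, 6.51 and 2.98 CPM treated. The 2 sets did not overlap, and the rise was 6.64-fold (log2 fold change 2.73, SE 0.37, adjusted p = 2.19e-06). EIF2AK2 (PKR, the kinase that stops translation on binding double-stranded RNA) ranged over 5.39 to 8.94 CPM untreated and 7.91 to 13.6 CPM treated and did not pass the test (log2 fold change 0.61, adjusted p = 0.122).

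Of the 16 effectors tested, 8 rose and 1 fell in wild-type cells. ISG20, an RNA exonuclease, was at 1.63, 2.01, 1.31 and 1.84 CPM untreated and 5.57, 5.44, 4.65 and 6.96 CPM treated, a rise of 3.27-fold (log2 fold change 1.71, SE 0.22, adjusted p = 1.23e-06). ISG15, a ubiquitin-like modifier, was at 3.27, 4.74, 2.99 and 2.27 CPM untreated and 6.85, 6.35, 6.98 and 8.95 CPM treated (log2 fold change 1.13, SE 0.22, adjusted p = 0.000161). In both genes the lowest treated library exceeded the highest untreated one. MX2, a dynamin-like GTPase that restricts nuclear import of viral genomes, was at 20.2, 11.7, 12.7 and 17.1 CPM untreated and 25.2, 22.4, 29.8 and 25.4 CPM treated (log2 fold change 0.72, SE 0.17, adjusted p = 0.0011). Its relative MX1 was at 7.84, 5.66, 6.54 and 8.00 CPM untreated and 12.4, 9.07, 11.2 and 8.46 CPM treated (log2 fold change 0.58, SE 0.18, adjusted p = 0.00896). Without replicate 1 of the treated wild-type libraries the MX1 call was lost (adjusted p = 0.1).

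IFIT1, which binds viral RNA caps that lack methylation, was at 8.16, 7.30, 6.35 and 8.97 CPM untreated and 12.0, 12.4, 9.77 and 12.4 CPM treated (log2 fold change 0.59, SE 0.16, adjusted p = 0.00373). IFI27 was at 2.45, 1.28, 1.68 and 1.73 CPM untreated and 3.01, 3.02, 4.18 and 4.48 CPM treated (log2 fold change 0.96, SE 0.25, adjusted p = 0.00383). OAS1, which makes the 2-5A messenger that activates RNase L, was at 1.14, 0.730, 0.747 and 1.30 CPM untreated and 2.11, 2.42, 3.25 and 1.49 CPM treated (log2 fold change 1.17, SE 0.40, adjusted p = 0.0181). IFI35 was at 2.94, 1.46, 3.36 and 3.24 CPM untreated and 5.88, 3.63, 3.72 and 4.48 CPM treated (log2 fold change 0.75, SE 0.30, adjusted p = 0.0397). All treated libraries lay above all untreated ones for these 4 genes. The lowest treated OAS1 value, 1.49 CPM in replicate 4, is at the floor of 3 counts in that library. The IFI35 call held in 16 of 29 alternative analyses only, and that of OAS1 was lost without treated replicate 3 (adjusted p = 0.0556).

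The IFITM proteins, small membrane proteins that hinder viral fusion, did not share 1 direction. IFITM2 was at 19.1, 28.1, 17.4 and 13.4 CPM untreated and 11.3, 7.56, 6.51 and 10.9 CPM treated and fell (log2 fold change -1.04, SE 0.35, adjusted p = 0.017). IFITM1 scattered within its groups, at 19.1, 36.3, 2.06 and 13.7 CPM untreated and 0.0753, 15.4, 1.40 and 12.4 CPM treated, and did not pass the test (adjusted p = 0.249). IFITM3 was at 0 in 3 untreated libraries and reached 1.36 CPM in a treated one (adjusted p = 0.134). Sequence of these 3 genes is shared: 35.3% (IFITM1), 45.2% (IFITM2) and 56% (IFITM3) of their 31-base words occur in another gene's transcripts. IFITM1 and IFITM2 overlap over 351 exon bases on the same strand (32.5% and 22.7% of their exons). IFITM3 overlaps AC136475.5, not analysed here, over 287 bases (21.3%) on the opposite strand. The division of reads among the IFITM genes is therefore uncertain. The IFITM2 call was lost without untreated replicate 2 (log2 fold change -0.81, adjusted p = 0.0688). The remaining effectors IFI6, IFI44, IFIT2, IFIT3 and OAS2 had log2 fold changes from -0.21 to 0.67 with no call.

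The regulators parted. ADAR (ENSG00000160710.16, chr1:154582057-154628013, minus strand) was at 770.3, 812, 823 and 804 CPM untreated and 481, 469, 460.4 and 464 CPM treated. The treated libraries lay close together and all under the untreated ones (log2 fold change -0.78, SE 0.078, adjusted p = 3.06e-08). TRIM25, a ubiquitin ligase of the RIG-I pathway, was at 8.33, 7.66, 5.98 and 6.81 CPM untreated and 9.11, 11.2, 8.84 and 13.9 CPM treated (log2 fold change 0.55, SE 0.20, adjusted p = 0.0285), and this call held in 23 of 29 alternative analyses.

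Class I presentation did not move as 1 group. TAPBP was at 22.2, 32.3, 22.6 and 25.6 CPM untreated and 15.7, 14.8, 14.9 and 16.9 CPM treated and fell (log2 fold change -0.72, SE 0.25, adjusted p = 0.0209), a call lost without untreated replicate 2 (adjusted p = 0.0685). HLA-B was at 0, 0.182, 0.934 and 0.432 CPM untreated and 0.979, 0.605, 2.33 and 1.99 CPM treated. Its groups overlapped, single libraries held at most 20 counts, and 25.5% of its 31-base words occur in another gene's transcripts. The HLA-B call (log2 fold change 1.70, SE 0.64, adjusted p = 0.0299) was lost in 6 of 27 alternative analyses. HLA-E, with 0 to 0.365 CPM untreated and 0.301 to 1.99 CPM treated, did not pass (adjusted p = 0.0747). B2M, with 9.31, 9.12, 7.66 and 8.76 CPM untreated and 13.8, 14.2, 20.5 and 6.96 CPM treated, did not pass either (log2 fold change 0.67, adjusted p = 0.0678).

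The motifs occurred among members of every call. Of the 14 that rose in wild-type cells 10 had a RefSeq promoter, and 5 of these 10 held GAAANNGAA and 4 TTCNNNGAA. Of the 12 without a call 9 had a promoter, and 7 held GAAANNGAA and 2 TTCNNNGAA. TAPBP, whose 2 matches are printed at the start, was among the 3 that fell, and IRF1, ISG20 and ISG15 were among those that rose. No comparison of these shares was tested.

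Markers of other cell types also moved in the same comparison, in both directions. The summed level of 8 microglial and macrophage markers was 4.56 to 6.7 CPM in untreated and 8.77 to 14.4 CPM in treated wild-type libraries, with AIF1, ITGAM and TYROBP at 0 in all untreated wild-type libraries and CX3CR1 at 0 in all treated ones. PTPRC (log2 fold change 1.21) and CSF1R (0.78) passed the test there, and CD68 did not (adjusted p = 0.317). The summed level of 4 endothelial markers was 34.6 to 39.5 CPM untreated and 91.7 to 129.2 CPM treated. There CLDN5 passed the test (log2 fold change 1.70) and PECAM1 and CDH5 did not. Of the 3 endothelial markers tested only CLDN5 had a positive log2 fold change. Of the 4 astrocyte markers tested GFAP and ALDH1L1 were higher (log2 fold change 0.88 and 1.02) and GJA1 lower (-0.59), with a summed level over all 6 listed of 43.9 to 59.1 CPM untreated and 33.8 to 52.9 CPM treated. Oligodendrocyte markers summed to 119.6 to 136.8 CPM untreated and 46.6 to 82.6 CPM treated, and 3 of 4 tested were called lower. Cycling progenitor markers summed to 42.13 to 56.55 and 16.64 to 23.25 CPM, and 2 of 3 tested were called lower. Fibroblast markers summed to 14.95 to 19.52 and 22.14 to 24.87 CPM, and 1 of 4 tested was called higher. In alpha-synuclein cells the microglial sum was 5.44 to 7.2 CPM untreated and 7.21 to 14 CPM treated, and the endothelial sum 43.5 to 75.03 and 66.8 to 89.2 CPM. The oligodendrocyte sum there was 120.3 to 155.7 and 35.95 to 61.25 CPM. The part of other cells in the members' changes was not tested.

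**Figure D2:**
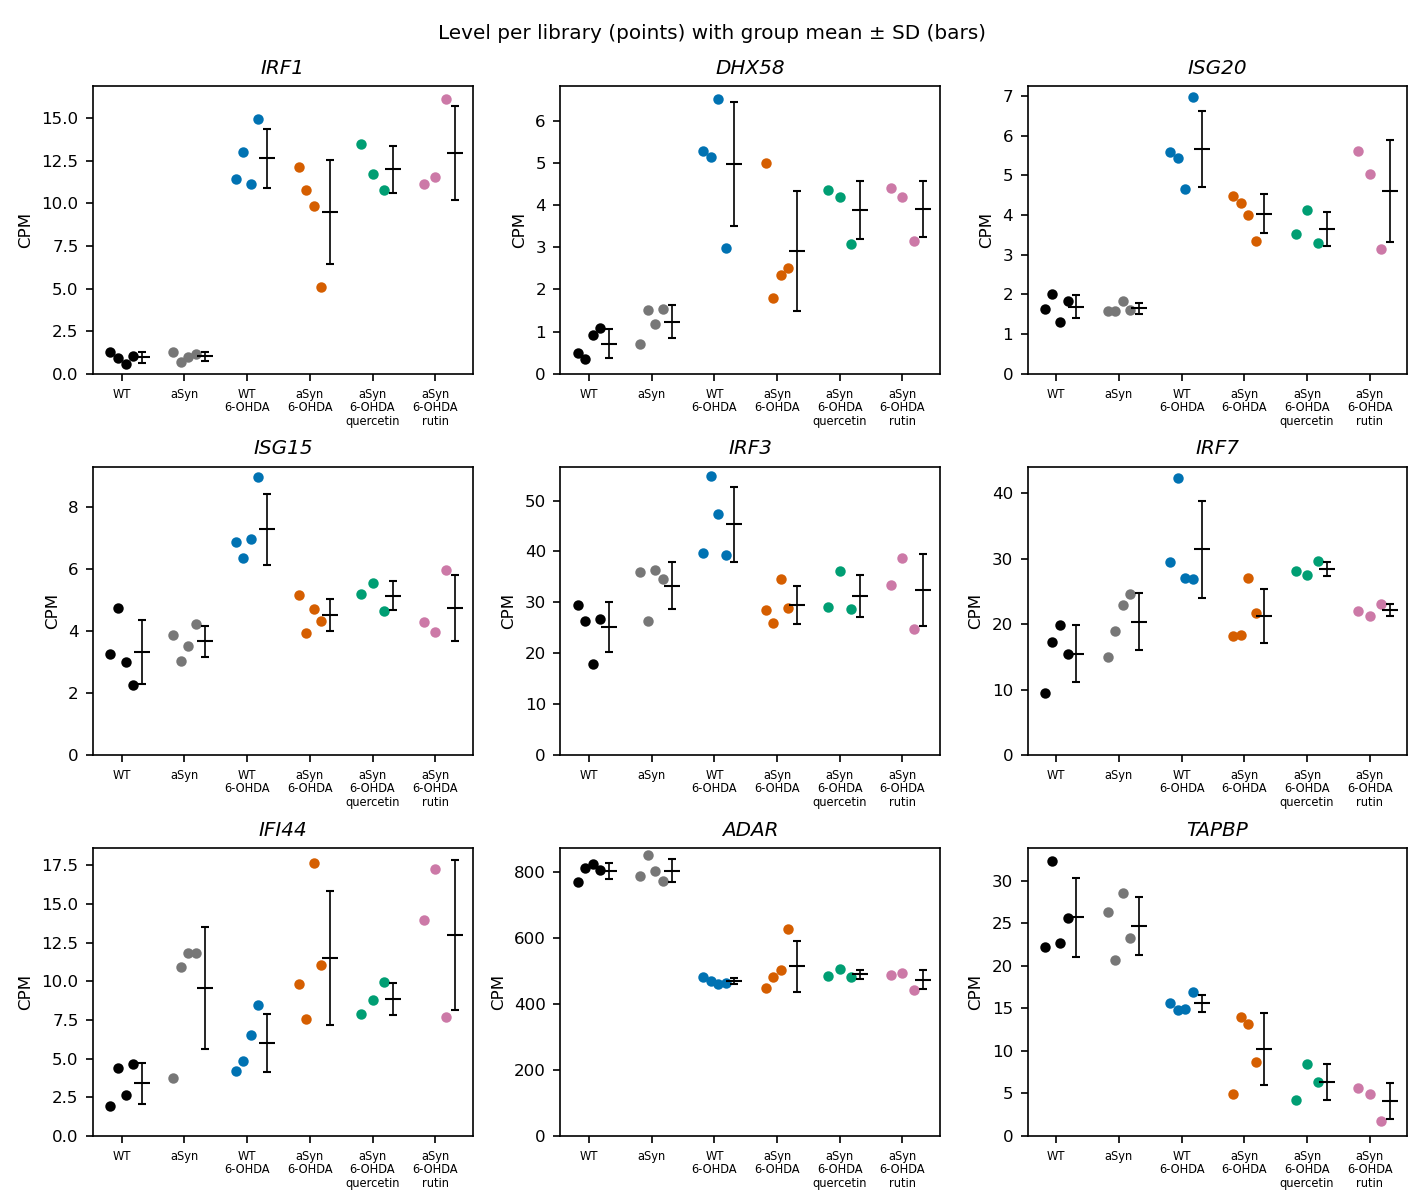
Level in CPM of 9 members in each of the 22 libraries, grouped by genotype and treatment, with mean and SD beside the points and axes that begin at 0. IRF1 is at 0.560 to 1.31 CPM in all untreated libraries and at 5.11 to 16.1 CPM in all treated ones, and ADAR is at 770.3 to 851 and 441.3 to 626 CPM.

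In alpha-synuclein cells 6-OHDA raised 8 members and lowered 3, where 47.1% of all genes were called, 22.9% higher and 24.2% lower. The members' share called was 37.9%, and 27.6% were called higher. Their median log2 fold change was 0.36, against 0.048 for all genes. The libraries did not overlap for 6 of the 29 tested members that were higher and 3 of the 29 that were lower, against 18.8% and 20.3% of all genes. The share of higher members was thus near that of all genes. The limit set by the filter holds here too: the 7 members named above had no untreated library of either genotype above its level. DHX58 and IRF1, both called higher here, are among them. Lane follows the groups here, so lane and treatment cannot be told apart. Without replicate 4, which stands apart, 9 members were higher and 4 lower, with OAS1 (adjusted p = 0.000856) and IFITM1 (adjusted p = 0.0159) added. OAS1 passed in 15 of 28 alternative analyses.

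IRF1 again changed most, from 1.29, 0.689, 1.01 and 1.14 CPM to 12.1, 10.8, 9.87 and 5.11 CPM (log2 fold change 3.16, SE 0.27, adjusted p = 4.66e-09). The fourth treated library, which stands apart on the first principal component, was the lowest. ISG20 went from 1.57, 1.58, 1.84 and 1.60 CPM to 4.49, 4.31, 4.00 and 3.35 CPM (log2 fold change 1.25, SE 0.20, adjusted p = 3.32e-05) and MX2 from 15.3, 15.2, 14.6 and 17.4 CPM to 33.6, 23.7, 28.2 and 20.04 CPM (log2 fold change 0.75, SE 0.16, adjusted p = 0.000506). Neither gene's groups overlapped. DHX58 rose from 0.714, 1.51, 1.17 and 1.54 CPM to 4.99, 1.79, 2.35 and 2.50 CPM (log2 fold change 1.21, SE 0.31, adjusted p = 0.00325), and its lowest treated library was just above its highest untreated one. IFIT1 rose from 7.43, 7.85, 8.16 and 9.26 CPM to 13.5, 12.2, 11.0 and 10.6 CPM (log2 fold change 0.52, SE 0.15, adjusted p = 0.00669).

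Smaller increases stood nearer to the threshold. TRIM25 went from 6.29, 7.37, 6.82 and 7.03 CPM to 14.0, 12.2, 10.1 and 6.87 CPM (log2 fold change 0.60, SE 0.19, adjusted p = 0.0113), with the call lost without treated replicate 1 (adjusted p = 0.199). MX1 went from 6.86, 6.75, 6.43 and 8.12 CPM to 11.5, 8.97, 10.6 and 7.04 CPM (log2 fold change 0.41, SE 0.17, adjusted p = 0.0466), a call that held in 15 of 28 alternative analyses. B2M went from 3.29, 7.99, 6.20 and 11.2 CPM to 14.0, 12.6, 16.2 and 8.63 CPM (log2 fold change 0.77, SE 0.28, adjusted p = 0.0316), a call that held in 23 of 28. In these 3 genes a treated library lay below the highest untreated one.

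The same 3 members fell as in wild-type cells. ADAR went from 788, 851, 801 and 772 CPM to 449.5, 480.2, 502 and 626 CPM (log2 fold change -0.64, SE 0.077, adjusted p = 6.46e-07), TAPBP from 26.3, 20.7, 28.5 and 23.2 CPM to 4.99, 14.0, 13.2 and 8.69 CPM (log2 fold change -1.34, SE 0.25, adjusted p = 0.000166), and IFITM2 from 23.4, 20.2, 32.7 and 27.4 CPM to 4.49, 4.31, 11.0 and 17.5 CPM (log2 fold change -1.34, SE 0.32, adjusted p = 0.00159). None of the 3 had overlapping groups. In both genotypes 7 members were called higher (DHX58, IRF1, IFIT1, ISG20, MX1, MX2 and TRIM25), 3 lower and 11 not at all, and no member had opposite calls. Of all 16601 genes 13.9% were called higher and 15.9% lower in both genotypes. DHX58 and IRF1 entered the tests only through treated libraries.

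**Figure D3:**
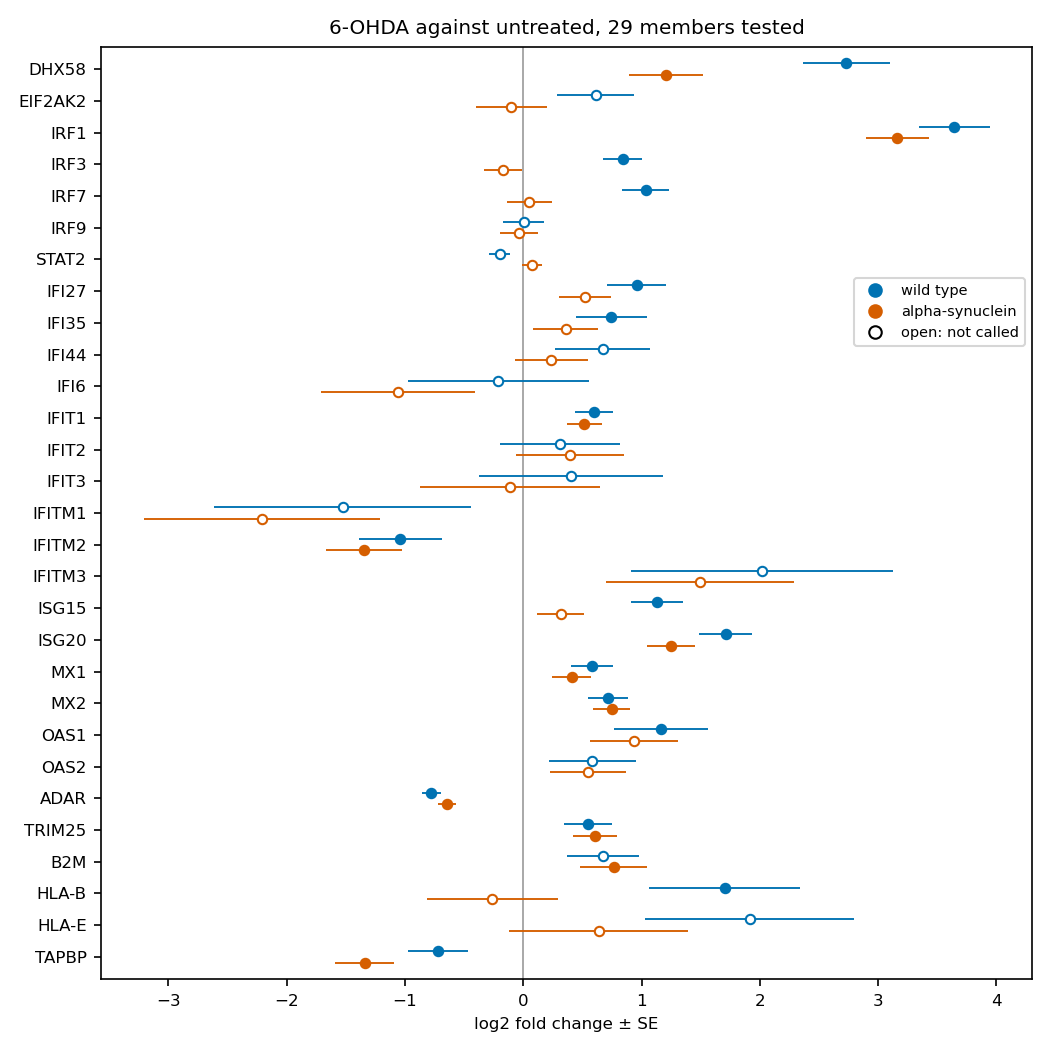
Log2 fold change with 6-OHDA of the 29 tested members in wild-type and alpha-synuclein cells, with bars of 1 SE and open points where the test was not passed. IRF1 lies at 3.64 and 3.16, while IRF3 and IRF7 lie at 0.84 and 1.03 in wild-type cells and at -0.17 and 0.053 in alpha-synuclein cells.

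The effect of 6-OHDA itself differed between the genotypes in 3 members by the interaction test, where 21.6% of all genes were called, 11.2% higher and 10.5% lower. All 3 had the lower response in alpha-synuclein cells, and they make up 10.3% of the members. IRF3 went from 35.9, 26.4, 36.4 and 34.5 CPM to 28.6, 25.8, 34.5 and 28.9 CPM in alpha-synuclein cells (log2 fold change -0.17, adjusted p = 0.385), and its interaction was -1.01 (SE 0.23, adjusted p = 0.00349). IRF7 went from 15.0, 18.9, 23.0 and 24.6 CPM to 18.1, 18.3, 27.0 and 21.6 CPM (log2 fold change 0.053), with an interaction of -0.98 (SE 0.27, adjusted p = 0.013). DHX58 rose in both genotypes but less in alpha-synuclein cells, with an interaction of -1.52 (SE 0.49, adjusted p = 0.0301).

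Without 6-OHDA, 3 of 4 alpha-synuclein libraries for IRF3 and 2 of 4 for IRF7 lay above every wild-type one, and these differences did not pass the test (adjusted p = 0.379 and 0.511). ISG15, at 3.86, 3.03, 3.52 and 4.23 CPM without and 5.15, 3.95, 4.70 and 4.31 CPM with 6-OHDA in alpha-synuclein cells, had an interaction of -0.82 that missed the threshold (adjusted p = 0.053). Lane and the difference between genotypes cannot be told apart in the interaction. The DHX58 interaction was lost without treated alpha-synuclein replicate 4 (adjusted p = 0.0578) and held in 18 of 28 alternative analyses, that of IRF7 was lost without untreated alpha-synuclein replicates 3 and 4 together (adjusted p = 0.122), and that of IRF3 held in all 28. The interaction of BCL2L12, which shares exon sequence with IRF3, was -0.71 (adjusted p = 0.069).

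Untreated alpha-synuclein cells differed from untreated wild-type cells in 1 of the 29 tested members, IFI44, where 0.651% of all genes were called and 0.373% were called higher. IFI44, an interferon-induced protein of uncertain mechanism, was at 1.96, 4.38, 2.62 and 4.65 CPM in wild-type and 3.71, 10.9, 11.8 and 11.8 CPM in alpha-synuclein libraries (log2 fold change 1.50, SE 0.34, adjusted p = 0.0423). Replicate 1 of the alpha-synuclein cells lay within the wild-type range and the other 3 lay far above it. The call held in 15 of 29 alternative analyses and was lost without replicate 3 (adjusted p = 0.124), without replicate 4 (adjusted p = 0.161) and without both (adjusted p = 0.703), while the log2 fold change stayed between 1.13 and 1.73. No 31-base word of IFI44 occurs in another gene's transcripts.

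After 6-OHDA, alpha-synuclein and wild-type cells differed in 4 members, where 27.3% of all genes were called, 14.4% higher and 12.9% lower. IFI44 was again higher, at 4.22, 4.84, 6.51 and 8.46 CPM in wild-type and 9.80, 7.54, 17.6 and 11.1 CPM in alpha-synuclein libraries (log2 fold change 1.06, SE 0.37, adjusted p = 0.0343), with 1 alpha-synuclein library under the highest wild-type one. IRF3 was lower (log2 fold change -0.61, SE 0.16, adjusted p = 0.0078), as were IRF7 (log2 fold change -0.57, SE 0.20, adjusted p = 0.0354) and ISG15 (log2 fold change -0.65, SE 0.21, adjusted p = 0.0261), whose values are given above. This comparison shares its libraries with the 6-OHDA comparisons, and lane and genotype cannot be told apart in it. Without alpha-synuclein replicate 4 only IRF3 was called, and without wild-type replicate 2 IRF3 lost its call (adjusted p = 0.0601).

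The compounds were compared with 6-OHDA alone in alpha-synuclein cells, since the design text applies them to test for protection. With quercetin 1 of 29 members was called, where 2.53% of all genes were called, 0.56% higher and 1.97% lower. STAT2 was at 92.9, 95.5, 90.9 and 92.1 CPM with 6-OHDA alone, 67.8, 71.4 and 64.2 CPM with quercetin and 75.8, 81.5 and 71.4 CPM with rutin. All 6 libraries with a compound lay below the 4 without. The fall passed the test with quercetin (log2 fold change -0.45, SE 0.092, adjusted p = 0.0153) and not with rutin (log2 fold change -0.28, SE 0.093, adjusted p = 0.266). The quercetin call was lost with libraries of 1 lane only (adjusted p = 0.0818), with only the compared groups in the fit (adjusted p = 0.157), and without quercetin replicate 2 (adjusted p = 0.0527) or 3 (adjusted p = 0.0558). It held without 6-OHDA replicate 4 (adjusted p = 0.0382). In untreated alpha-synuclein cells STAT2 ranged over 77.2 to 97.9 CPM, and its change with 6-OHDA alone did not pass the test (log2 fold change 0.076, adjusted p = 0.478).

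With rutin no member and no gene was called (0% of 16601 genes) by edgeR, while 1790 genes and 4 members had an unadjusted p under 0.05, and DESeq2 called 289 genes and of the members STAT2 (adjusted p = 0.0485). TAPBP was at 5.62, 4.93 and 1.75 CPM with rutin and 4.22, 8.43 and 6.31 CPM with quercetin, against 4.99, 14.0, 13.2 and 8.69 CPM with 6-OHDA alone (rutin: log2 fold change -1.10, SE 0.32, adjusted p = 0.192). Rutin's difference in TAPBP passed the test in 1 of 28 alternative analyses, with adjusted p from 0.0388 to 0.599. That was the fit without 6-OHDA alpha-synuclein replicate 1, the lowest of its group, whose removal widens the difference (log2 fold change -1.34, adjusted p = 0.0388). B2M was at 20.2, 23.1 and 32.9 CPM with rutin and 14.8, 15.0 and 20.6 CPM with quercetin and did not pass (rutin: log2 fold change 0.99, SE 0.30, adjusted p = 0.218). IRF1, the member that 6-OHDA had moved most, stood at 13.5, 11.7 and 10.8 CPM with quercetin and 11.1, 11.6 and 16.1 CPM with rutin. None of these libraries came near the untreated range of 0.689 to 1.29 CPM. The 95% interval of the IRF1 change was -0.10 to 0.88 with quercetin and -0.034 to 0.97 with rutin, on the log2 scale. The change itself was 0.39 and 0.47, and without 6-OHDA replicate 4 it was 0.12 (adjusted p = 0.892) and 0.20 (adjusted p = 0.894).

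Quercetin and rutin, which differ by the sugar that rutin carries, were compared with each other as 1 pair over all genes. No member passed the test, and the lowest adjusted p among the 29 was 0.602, where 0.00602% of all genes (1 gene) were called and 1481 had an unadjusted p under 0.05, none of them a member. The intervals decide how much this says. For 16 of 29 members the 95% interval of the difference lay within 1 log2 unit either way, and the widest interval reached 4.6. For STAT2 the difference was -0.17 with an interval of -0.38 to 0.030, and for IRF1 -0.082 with an interval of -0.59 to 0.43. Matched doses were not stated, and both compounds share the same 6-OHDA libraries.

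**Figure D4:**
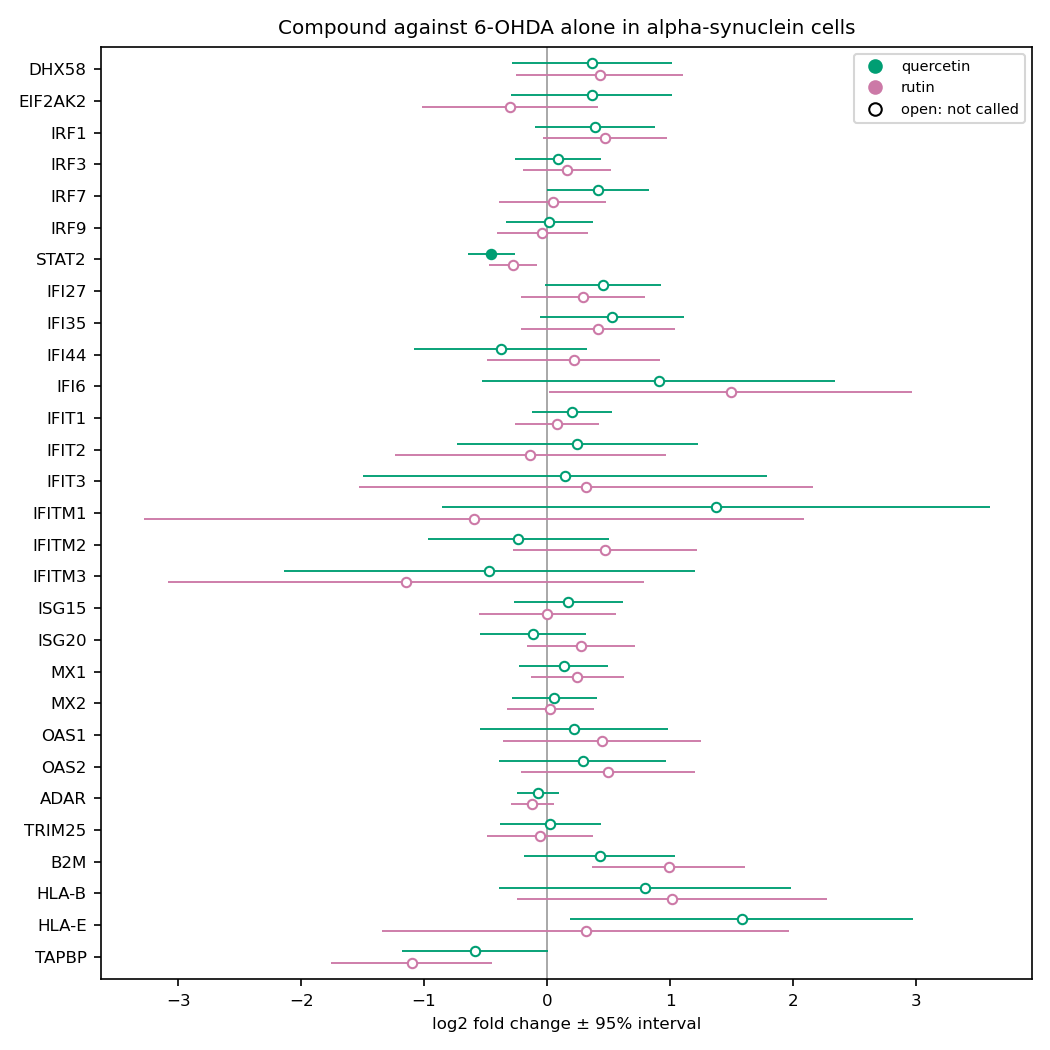
Log2 fold change of the 29 tested members with quercetin or rutin against 6-OHDA alone in alpha-synuclein cells, with 95% intervals and open points where the test was not passed. STAT2 with quercetin, at -0.45, is the 1 filled point.

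The rest of the interferon pathway was followed through 76 further genes: 70 were found in the table, and 50 passed the low-count filter. In wild-type cells 6-OHDA raised 16 and lowered 6 of the 50, and in alpha-synuclein cells 18 and 8 (18 and 9 without replicate 4). That is 32% and 36% of them higher, against 25.8% and 22.9% of all genes, and 12% and 16% lower, against 26.2% and 24.2%. Of the interferons themselves IFNA1 and IFNA2 had no count, IFNE had 1 and IFNK was at 0.182 to 0.653 CPM in untreated and 0.605 to 2.49 CPM in treated wild-type libraries. IFNK, a type I interferon of keratinocytes, passed the test there (log2 fold change 1.92, SE 0.65, adjusted p = 0.0166) on 1 to 4 counts a library untreated and 2 to 11 treated, in overlapping groups, and did not pass in alpha-synuclein cells (log2 fold change 1.10, adjusted p = 0.0793). Every untreated wild-type library lay under the filter's level of 1.4 CPM for IFNK, so it did not enter the test through them. The interaction did not pass for IFNK (adjusted p = 0.526). IFNB1, IFNG, IFNL1 and the receptor chain IFNAR1 were not analysed here. In wild-type cells the receptor chain IFNAR2 fell with 6-OHDA, from 33.8 to 41.9 CPM to 15.8 to 28.4 CPM (log2 fold change -0.65, SE 0.15, adjusted p = 0.000884).

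The feedback inhibitors had the largest changes of the pathway genes named by the rule. SOCS1, which blocks JAK kinases, went from 5.73 to 8.21 CPM to 86.2 to 97.5 CPM in wild-type cells (log2 fold change 3.81, SE 0.23, adjusted p = 1.46e-11) and from 5.58 to 9.43 CPM to 23.4 to 56 CPM in alpha-synuclein cells (log2 fold change 2.51, SE 0.21, adjusted p = 3.19e-09). SOCS3, a relative that acts at cytokine receptors, went from 5.23 to 7.19 CPM to 59.5 to 69.3 CPM (log2 fold change 3.37, SE 0.17, adjusted p = 1.39e-12) and from 7.26 to 10.1 CPM to 34.3 to 55.99 CPM (log2 fold change 2.53, SE 0.15, adjusted p = 3.4e-11). The interaction was called for both, at -1.29 and -0.84, with the smaller rise in alpha-synuclein cells. Of the 50 genes 6% (3 genes) were called higher in the interaction and 12% (6 genes) lower, against 11.2% and 10.5% of all genes. The 3 called higher were PIAS1 (0.65), IFNGR1 (0.50) and XAF1 (0.82). Lane and the difference between genotypes cannot be told apart in it. TBK1, the kinase that phosphorylates IRF3, rose (log2 fold change 2.06 and 1.82), as did the restriction factor TRIM5 (1.47 and 1.89).

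STAT3, a factor activated by many cytokines, fell in both genotypes (log2 fold change -0.82 and -0.73), and so did PIAS1, a SUMO ligase that inhibits STAT signalling (-1.16 and -0.50). Among the class I genes outside the members, HLA-G had no count in any of the 22 libraries. Alpha-synuclein alone called none of the 50, where 4 had an unadjusted p under 0.05 and 0.651% of all genes were called. Quercetin lowered 4 of the 50 (1 without 6-OHDA replicate 4), that is 8%, against 1.97% of all genes. They were TRIM5 (log2 fold change -0.76, SE 0.15, adjusted p = 0.0131), which 6-OHDA had raised, and 3 genes of class I presentation. These were ERAP1, which trims peptides (log2 fold change -0.95, adjusted p = 0.0226), and PDIA3 (log2 fold change -0.67, adjusted p = 0.0246) and CALR (log2 fold change -0.59, adjusted p = 0.0451), chaperones of the loading complex. With rutin no gene was called.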

How the data were processed

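RNA was measured in 22 LUHMES libraries of 6 groups, with groups and replicate numbers taken from the titles. The values are estimated counts per Ensembl gene, in whole numbers and not normalised, as deposited by the authors. Per the submitters' processing notes, Trimmomatic 0.38 and kallisto 0.46.2 were used with the builds GRCh38 and hg38, in no stated order. How transcripts were summed to genes and the use of strand were not given in the sources used here. As kallisto divides reads among similar transcripts, genes that share sequence are uncertain. All columns matched a sample (0 others). The labels do not say that replicates were separate cultures. The p-values then measure only how these samples vary, which may be technical. Pairs within a group differed beyond sampling noise (chi-square per degree of freedom 2.73 to 23.6 over 30 pairs).

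Counts were analysed in R 4.3.3 with edgeR 4.0.16: filterByExpr with a minimum count of 10 (16601 genes kept), TMM scaling, and two-sided glmQLFTest on group means of all 22 libraries, Benjamini-Hochberg adjusted over all genes tested, called under 0.05. SEs and 95% intervals were computed from each F statistic. There were 8 comparisons. On simulated counts for 6-OHDA in wild-type cells (16601 genes) 65% of genes changed by 1 log2 unit and 92% of those changed by 2 were recovered. There 100 genes drawn from all were changed by each amount and the rest not at all, whereas 52% of genes were called in the data. The rates need not hold for the members. Alternatives were other size factors, DESeq2 1.42.0, no filter, fewer groups, 1 lane, a replicate block and each library left out. Intervals reflect the spread of these libraries, and floors reflect counting error only.

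Positions are from GENCODE 29 on GRCh38 (all 37 members matched without version), and exon lengths are unions over its transcripts. Shared sequence was counted in 31-base words of its transcripts. Promoters are from RefSeq, GRCh38.p14. The members, the pathway and marker lists and the rule for named genes were chosen with earlier results of these data known. By that rule members called in the first 5 comparisons are given in full, others by range, and of pathway genes up to 4 called each way with the smallest adjusted p. STAT2, TAPBP, B2M and IRF1 under the compounds, and STAT2, IRF9, IFNK, IFNE and HLA-G, were named after their values were seen. Some genes that these rules would name are not reported here.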

Additional observations from a re-analysis of the deposited data

Results flagged for a closer look

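In 8 sets of 4 libraries (6.9% of the sets tested), 1 library stood apart from the other 3 by Dixon's test, where chance gives about 1 in 20. Of these, 3 were in replicate 1 of untreated alpha-synuclein cells. There IFI35 was highest at 4.715 CPM with the others at 2.34 to 2.74, IFI6 was highest at 6.858 CPM with the others at 1.43 to 2.34, and IFI44 was lowest at 3.715 CPM with the others at 10.9 to 11.9. ISG20 was highest in replicate 3 of the same group, at 1.844 CPM with the others at 1.57 to 1.6. IFIT1 was lowest in replicate 3 of 6-OHDA wild-type cells, at 9.766 CPM with the others at 12.0 to 12.4, and OAS2 in replicate 4, at 1.492 CPM with the others at 2.79 to 3.03. IFIT3 was at 0 CPM in replicate 1 of 6-OHDA alpha-synuclein cells with the others at 1.08 to 1.18. IFITM3 was at 0.6487 CPM in replicate 4 of untreated wild-type cells with the others at 0.

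The 6-OHDA effect differed between genotypes, by the interaction test of edgeR, in DHX58 (-1.524, adjusted p = 0.0301), IRF3 (-1.012, adjusted p = 0.00349) and IRF7 (-0.9814, adjusted p = 0.013), each lower in alpha-synuclein cells. Lane and genotype cannot be told apart in this test. Among all genes 21.6% were called in it.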

How the results depend on the processing

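In the shallowest library 3 counts came to 1.49 CPM, so lower levels could not be told from 0 there. Across all members and alternatives no called value turned its direction. The number of members called with 6-OHDA was 14 to 18 in wild-type cells and 8 to 13 in alpha-synuclein cells with each library left out. For alpha-synuclein in untreated cells it was 1, and 0 without the 2 libraries with 4 barcode numbers (replicates 3 and 4), with libraries of 1 lane or with only the compared groups, and 0 to 1 with each library left out. For alpha-synuclein in 6-OHDA cells it was 4, 2 with no filter on low counts, and 1 to 5 with each library left out. For the interaction it was 3, 1 without the 2 libraries with 4 barcode numbers, and 2 to 4 with each library left out. For quercetin it was 1, 0 with libraries of 1 lane or only the compared groups, and 0 to 1 with each library left out. For rutin it was 0, 1 with DESeq2 (3 members had an adjusted p there), and 0 to 1 with each library left out. For quercetin against rutin it was 0 in all of them. The causes were not tested.

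Over all genes, the calls for alpha-synuclein in untreated cells were 108, 11 without the 2 libraries, 23 with only the compared groups, 234 with DESeq2 and 33 to 239 with each library left out. For quercetin they were 420, 120 with the block, 230 without the 2 libraries, 999 with DESeq2, 4 with 1 lane, 2 with only the compared groups and 26 to 896. For rutin they were 0, 2 with other size factors, 4 with no filter, 289 with DESeq2 and 0 to 143. For quercetin against rutin they were 1, 8 with no filter, 120 with DESeq2, 19 with only the compared groups and 0 to 58. For the interaction they were 3594, and 1978 without the 2 libraries.

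No pairing by replicate number was seen: of 51 same-numbered pairs 0 correlated above 0.1 in their deviations (-0.138 to 0.0776). With 3 or 4 libraries a group and noise between libraries, a weak shared effect could be missed, so pairing is not excluded. With the replicate block the members called were 17 and 10 with 6-OHDA in wild-type and alpha-synuclein cells, 1 and 4 for alpha-synuclein without and with 6-OHDA, 3 for the interaction, 1 for quercetin and 0 for rutin and for quercetin against rutin. No fit within a lane could be made for the interaction, for 6-OHDA in alpha-synuclein cells or for the genotypes compared after 6-OHDA.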

Other observations

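IFI44L, the neighbouring relative of IFI44, was looked at after its values were seen. It ranged over 22.4 to 33.5 CPM in untreated wild-type and 22.3 to 32.3 CPM in untreated alpha-synuclein libraries, without a call (log2 fold change 0.020, SE 0.18, adjusted p = 0.997), where IFI44 had a log2 fold change of 1.50. RIGI, the RNA sensor that TRIM25 modifies, was listed at 0 in every library of the untreated wild-type, 6-OHDA alpha-synuclein and rutin groups and at up to 2.35 CPM in untreated alpha-synuclein libraries, so no fold is given.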
